A study of Mus musculus with 20 samples.

Results

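The ADAM proteins are membrane-bound proteins with a metalloprotease and a disintegrin domain, and their genes were followed in testes of 2 mouse strains after heat. All genes whose symbol is Adam followed by a number were taken, without the related Adamts genes, and each was read by the probe set of that gene alone with the highest mean signal. This gave 28 ADAM genes of 18193 genes on the chip, and 25 of them were among the 15762 genes bright enough to be tested. Adam7, Adam19 and Adam28 were too dim in every group, with single arrays between 0.745 and 22.9, where the threshold for a group mean was a signal of 17.5. RNA of whole testes came from AKR/N and C57BL/6 mice, both inbred strains and all 8 weeks old, heated at 43 °C for 15 min and taken 8, 10, 12 or 24 h later, or not heated at all. The 20 arrays, of the Affymetrix Mouse Genome 430 2.0 chip, gave 10 groups of strain and time with a pair of arrays in each. Whether a pair stems from separate animals is not in the labels, and its spread, on which the p-values rest, may be only technical. The controls carry no time of their own, so heat and the time of sampling cannot be told apart, and every comparison of a strain uses the same 2 controls.

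ADAM proteins with a working metalloprotease, such as ADAM9, ADAM10 and ADAM17, cut the outer parts of other membrane proteins from the cell surface, and ADAM10 is known for the first cut that lets Notch signal. Many other ADAM genes are expressed mainly in male germ cells. In mouse sperm, fertilin is a pair of ADAM1 and ADAM2. ADAM2 and ADAM3 are needed for sperm to pass into the oviduct and bind the egg coat. Several sperm ADAM proteins have lost the catalytic residues and act by binding, and they are folded by testis chaperones and trimmed by proteases as sperm mature.

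Signals are linear intensities as deposited, and changes are differences of group means of log2(signal + 16) from limma with their standard error (SE). A gene was called where its p, adjusted by Benjamini-Hochberg over all 15762 genes, was under 0.05. The median signal of an array was 24.9 to 34.9, and replicate arrays correlated with r of 0.970 to 0.988 (across genes, which are not independent). RNA quality, read as the ratio of 3' to 5' beta-actin signal, was 1.87 to 3.57, highest on C57BL/6 12 h replicate 2. In AKR/N the ratio was 2.14 and 2.17 at 24 h, below the controls at 2.92 and 2.39. In C57BL/6 it was 2.84 and 2.58 at 24 h, above the controls at 2.14 and 2.46. The part of RNA quality in the 24 h changes was not tested. All 14 measured genes of each of the round and elongating spermatid marker lists were above the dim threshold in every group, and 0 to 1 of 4 measured epididymis markers were. Fewer cells of a type and less RNA per cell cannot be told apart in whole testes.

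Genes called at 24 h in both strains differed in the CG content of their promoters, shown here for 4 of them. RefSeq promoter windows were at hand for 14 of the 28 ADAM genes (16 windows, build GRCm38.p6), and the 250 bases before the start site were read, 5′ to 3′ on the gene's strand. CG pairs are in capitals. Adam10 at chr9:70678732-70678981, plus strand, held 29 CG pairs, where the median of all 32851 windows was 6. Adam6a at chr12:113543658-113543907, plus strand, and Adam1b at chr5:121503436-121503685, minus strand, held 1 each. Adam21 at chr12:81568475-81568724, minus strand, held 0.
Adam10: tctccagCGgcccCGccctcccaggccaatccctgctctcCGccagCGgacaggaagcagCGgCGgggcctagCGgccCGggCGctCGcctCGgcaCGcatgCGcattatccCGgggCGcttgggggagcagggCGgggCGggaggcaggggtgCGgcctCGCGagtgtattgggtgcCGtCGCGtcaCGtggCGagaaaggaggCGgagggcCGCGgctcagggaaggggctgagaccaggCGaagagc
Adam6a: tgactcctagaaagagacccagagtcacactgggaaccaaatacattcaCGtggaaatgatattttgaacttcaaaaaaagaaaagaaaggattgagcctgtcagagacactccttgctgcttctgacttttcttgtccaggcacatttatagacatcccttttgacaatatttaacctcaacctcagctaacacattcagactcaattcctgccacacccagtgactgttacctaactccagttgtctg
Adam21: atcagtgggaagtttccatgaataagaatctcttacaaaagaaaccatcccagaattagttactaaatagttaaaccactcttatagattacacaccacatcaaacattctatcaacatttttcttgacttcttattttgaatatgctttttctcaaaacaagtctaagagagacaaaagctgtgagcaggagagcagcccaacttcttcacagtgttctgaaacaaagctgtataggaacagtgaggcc
Adam1b: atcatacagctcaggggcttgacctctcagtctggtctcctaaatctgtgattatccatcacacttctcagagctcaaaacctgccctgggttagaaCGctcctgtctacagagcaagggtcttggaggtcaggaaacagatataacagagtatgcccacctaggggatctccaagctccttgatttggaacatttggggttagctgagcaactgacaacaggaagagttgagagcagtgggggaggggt
The other somatic members with a window also had mostly CG-rich windows, with 23 CG pairs in Adam17, 27 in Adam23, 18 in Adam15 and 17 in Adam22. But Adam8 had 6, and the dim Adam19 had 5, 7 and 4 in its 3 windows, near the median of all windows. The other germ cell members had few, with 4 in Adam1a, 1 in Adam25 and 0 in both Adam34 and Adam6b.

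The same windows were searched on both strands for 6 short motifs. Positions are of the first base of a match on the printed strand, whichever strand holds the motif. Pairs of heat shock element units were written as TTCNNGAA and GAANNTTC. TTCNNGAA, held by 7.17% of all windows, was in none of the 16 ADAM windows, and GAANNTTC, held by 6.69%, began at base −242 of Adam21 and base −167 of Adam1a, counted from the start site. The core of the cAMP response element, TGACGT (6.47% of all windows), and its full form TGACGTCA (1.55%), which contains the core, were in none. The GC box GGGCGG (32.7%) was in Adam10, at bases −238 (as CCGCCC on the printed strand), −119 and −114. It was found once each in Adam15, Adam17 and Adam8. TATAAA (12.4%) was at base −104 of Adam6a, as TTTATA on the printed strand, and at base −205 of Adam6b. These matches are of letters only.

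The heat comparisons asked which ADAM genes differed from controls of the same strain at each time. At 8 h 0 of 25 ADAM genes were called in either strain, where 0.0381% of all genes were called in AKR/N and 0.0888% in C57BL/6; 1 ADAM gene in AKR/N and 0 in C57BL/6 had an unadjusted p under 0.05. At 10 h 0 were called in AKR/N (2.63% of all genes; 5 ADAM genes with an unadjusted p under 0.05), and 4 were higher and 0 lower in C57BL/6 (11.2% of all genes, 6.00% higher and 5.19% lower). At 12 h 0 were called in AKR/N (7.00% of all genes; 9 ADAM genes with an unadjusted p under 0.05), and 4 were higher and 1 lower in C57BL/6 (19.1% of all genes, 9.71% higher and 9.38% lower). The C57BL/6 calls were 16% of the 25 ADAM genes at 10 h and 20% at 12 h, close to the shares of all genes. At 24 h 7 rose and 6 fell in AKR/N, which is 52.0% of 25 against 23.4% of all genes (12.3% higher and 11.1% lower). In C57BL/6 6 rose and 3 fell at 24 h, which is 36.0% against 38.0% of all genes (21.4% higher and 16.6% lower), a share near the background.

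These counts depended on single arrays. The 13 calls in AKR/N at 24 h became 7 without AKR/N 24 h replicate 1, 4 without AKR/N 24 h replicate 2, 4 without AKR/N control replicate 1 and 9 without AKR/N control replicate 2. The 9 calls in C57BL/6 at 24 h stayed at 8 to 9 whichever array was left out. The 4 calls in C57BL/6 at 10 h fell to 1 or 2, and the 5 at 12 h fell to between 0 and 2, whichever of their 4 arrays was left out. When arrays were centred on their medians, which lowered the median change of all genes in C57BL/6 at 12 h from 0.06 to −0.07, the 4 higher and 1 lower ADAM calls at that time became 0 higher and 1 lower. A lack of overlap between the arrays of a group and its controls was common. At 24 h it held for 11 ADAM genes above and 11 below controls in AKR/N, and 14 above and 4 below in C57BL/6. At 8 h in C57BL/6, with 0 calls, it held for 7 above and 2 below. The share over all genes was not counted, so lack of overlap is given only as a description.

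**Figure D1:**
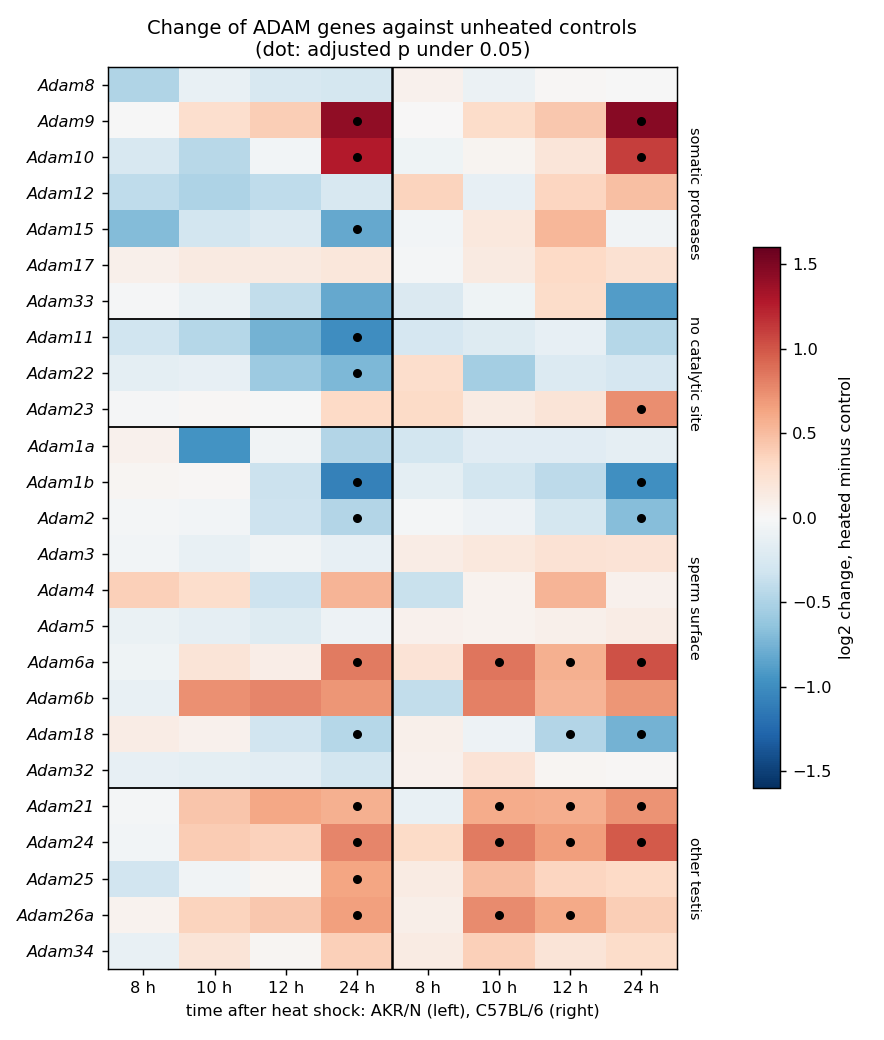
Log2 change of the 25 tested ADAM genes against controls of the same strain at 8, 10, 12 and 24 h after heat, AKR/N left of C57BL/6, by role. Colour gives the change and marks show the calls at an adjusted p under 0.05. Adam9, Adam10 and Adam6a are higher and Adam1b is lower at 24 h in both strains.

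Among the broadly expressed proteases, Adam9 and Adam10 rose at 24 h in both strains and 1 of the other 5 tested members was called, in AKR/N. At that time 23.4% of all genes were called in AKR/N and 38.0% in C57BL/6. ADAM9 is a widely expressed shedding protease. In AKR/N the Adam9 signals were 119 and 114 in controls, 112 and 121 at 8 h, 136 and 151 at 10 h, 143 and 174 at 12 h and 314 and 361 at 24 h. In C57BL/6 they were 127 and 133 in controls, 127 and 132 at 8 h, 176 and 150.03 at 10 h, 222 and 144 at 12 h and 389 and 377 at 24 h. In each strain both 24 h arrays lay above all arrays of controls and earlier times. The 24 h change was 1.41 (SE 0.17, adjusted p = 2.81e-04) in AKR/N, a 2.66-fold higher level of signal + 16, and 1.45 (SE 0.17, adjusted p = 2.80e-05) in C57BL/6, 2.74-fold. At 12 h in C57BL/6 it was 0.43 (adjusted p = 0.0913), not called with both arrays, but called without C57BL/6 12 h replicate 2 (0.71, adjusted p = 0.0138).

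ADAM10 cuts Notch receptors, cadherins and many growth factor precursors. In AKR/N the Adam10 signals were 315 and 269.6 in controls, 258 and 227 at 8 h, 212 and 207 at 10 h, 269.8 and 295 at 12 h and 669 and 786 at 24 h. In C57BL/6 they were 244 and 205 in controls, 199.8 and 226 at 8 h, 266 and 202 at 10 h, 301 and 221 at 12 h and 542 and 466 at 24 h. The AKR/N signals at 8 and 10 h lay below both controls, and both 24 h arrays of each strain lay above every other array of that strain. The 24 h change was 1.27 (SE 0.17, adjusted p = 4.84e-04) in AKR/N and 1.11 (SE 0.17, adjusted p = 2.47e-04) in C57BL/6. A second Adam10 probe set changed by 0.77 in AKR/N and 1.03 in C57BL/6 and was called in both. Another, dim with arrays from 1.67 to 24.9, was at 0.65 in AKR/N and 0.47 in C57BL/6 without a call. With a 4th set, which was too dim to be tested, the mean over all 4 probe sets gave 0.70 in AKR/N and 0.77 in C57BL/6.

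In a comparison added after seeing the data, 24 h arrays were set against 12 h arrays of the same strain, where 10.1% of all genes were called in AKR/N (6.19% higher and 3.89% lower) and 9.61% in C57BL/6 (5.62% higher and 3.99% lower). Adam9 was higher at 24 h by 1.02 (adjusted p = 0.00318) in AKR/N and 1.03 (adjusted p = 0.00393) in C57BL/6. Adam10 was higher by 1.31 (adjusted p = 0.00106) in AKR/N and 0.92 (adjusted p = 0.00708) in C57BL/6, a call lost on leaving out C57BL/6 12 h replicate 2 (0.71, adjusted p = 0.0731) or 24 h replicate 1 (0.81, adjusted p = 0.0765). In each strain most of the rise of both genes lay between 12 and 24 h. Over the family 4 of 25 ADAM genes were higher and 1 lower at 24 h than at 12 h in AKR/N, and 2 higher and 1 lower in C57BL/6. Beside Adam9 and Adam10 these were Adam6a (0.72), Adam25 (0.60) and Adam1b (−0.73) in AKR/N and Adam1b (−0.56) in C57BL/6, each of which ended without 1 array or another. These counts became 2 in AKR/N without 12 h replicate 1 or 24 h replicate 2, and 1 in C57BL/6 without 12 h replicate 2 or 24 h replicate 1.

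**Figure D2:**
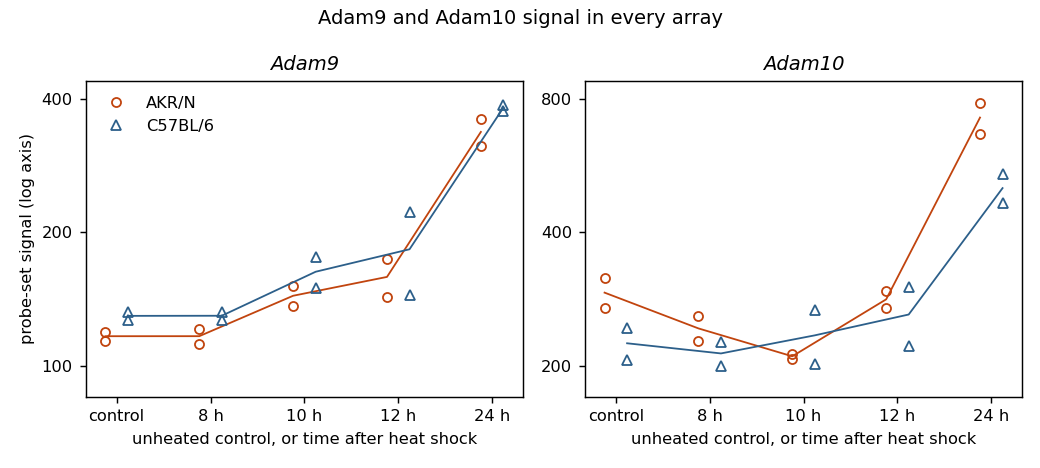
Signal of Adam9 and Adam10 on every array (log axis, deposited intensity) in controls and 8, 10, 12 and 24 h after heat. Circles are AKR/N and triangles C57BL/6, and lines join the means of the 2 arrays. At 24 h Adam9 lies at 314 and 361 in AKR/N and 389 and 377 in C57BL/6.

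Summed markers of Sertoli cells, leukocytes, peritubular myoid cells and endothelial cells were also higher at 24 h in both strains. Those of Leydig cells were lower in AKR/N and higher in C57BL/6. The summed signal of 12 measured Sertoli cell markers was 9465 to 9523 at 24 h and 6419 to 6686 in controls in AKR/N, and 9809 to 10044 at 24 h and 5824 to 6008 in controls in C57BL/6. Of 11 tested, 7 rose and 0 fell in AKR/N (median 0.48) and 6 rose and 2 fell in C57BL/6 (median 0.44). Clu, at 0.54 in AKR/N and 0.87 in C57BL/6, made up most of these sums. In AKR/N Clu alone had 6401 and 6596 at 24 h and 4496 and 4415 in controls. In C57BL/6 it had 7365 and 7216 at 24 h and 3843 and 4144 in controls. The summed signal of 16 macrophage and leukocyte markers was 2703 to 3172 at 24 h and 1784 to 1910 in controls in AKR/N, and 2076 to 2082 at 24 h and 1106 to 1134 in controls in C57BL/6. Of 15 tested, 5 rose and 0 fell in each strain, with a median change of 0.34 in AKR/N and 0.53 in C57BL/6. Lyz1 alone gave a large part of the rise of these sums. It had 566 and 892 at 24 h and 212 and 281 in controls in AKR/N. In C57BL/6 it had 519 and 604 at 24 h and 153 and 158 in controls. Of 7 tested peritubular myoid markers 3 rose in AKR/N and 2 in C57BL/6, with sums of 3528 to 3908 at 24 h and 2766 to 3129 in controls in AKR/N, and 3631 to 3929 at 24 h and 2969 to 3086 in controls in C57BL/6. Of 8 Leydig cell markers 0 rose and 2 fell in AKR/N, with sums of 4658 to 4799.995 at 24 h and 6168 to 6302 in controls, and 3 rose and 2 fell in C57BL/6, with sums of 6097 to 6669.96 at 24 h and 5223 to 5435 in controls. Of 7 tested endothelial markers 0 were called in AKR/N and 2 rose in C57BL/6, with sums of 204 to 257 at 24 h and 188 to 194 in controls in AKR/N, and 295 to 300.4 at 24 h and 151 to 171 in controls in C57BL/6, over 8 measured. No Sertoli cell, leukocyte, myoid, Leydig cell or endothelial marker was at 0 on any array, but Itgam was under the dim threshold in controls and at 24 h of both strains, and Amh of Sertoli cells, Pecam1 and Tie1 of endothelium likewise. Of all genes, 23.4% were called at 24 h in AKR/N and 38.0% in C57BL/6. The leukocyte, myoid and endothelial shares in C57BL/6 were 33.3%, 28.6% and 28.6%, below that of all genes. In AKR/N they were 33.3%, 42.9% and 0%. The Leydig cell shares were 25.0% in AKR/N and 62.5% in C57BL/6. The Sertoli cell shares were 63.6% in AKR/N and 72.7% in C57BL/6. The part of these cells in the rise of Adam9 and Adam10 was not tested.

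The other broadly expressed proteases gave 1 call at 24 h. Adam17, which releases tumour necrosis factor, ran over all 20 arrays from 81 to 183 and was at 0.19 (adjusted p = 0.572) in AKR/N and 0.24 (adjusted p = 0.411) in C57BL/6. Its 2 further probe sets were also not called in either strain. Adam15 fell in AKR/N, to 95.7 and 121 at 24 h against 229.8 and 177 in controls, −0.82 (SE 0.27, adjusted p = 0.0409), while in C57BL/6 the signals were 142 and 119 at 24 h and 144 and 129 in controls (−0.06). The Adam15 call ended without any 1 of the 4 arrays (adjusted p from 0.0622 to 0.215). Its probe set carries a suffix that marks probes shared with other transcripts, and 2 more Adam15 probe sets gave −0.30 and −0.54 in AKR/N without a call.

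Adam8, a protease of leukocytes, Adam12 and Adam33 were dim and not called. Adam8 ran from 9.21 to 62.6 and was at −0.28 in AKR/N and −0.01 in C57BL/6. Adam12 was at −0.25 in AKR/N and 0.48 in C57BL/6. Adam33 had 6.5 and 19.98 at 24 h and 50.2 and 22.2 in controls in AKR/N (−0.82, adjusted p = 0.187), and 3.2 and 28.5 at 24 h and 47.4 and 30.4 in controls in C57BL/6 (−0.89, adjusted p = 0.123). The Adam33 arrays did not overlap between 24 h and controls in either strain, but the 2 arrays of a group differed widely, and without C57BL/6 24 h replicate 2 the fall was called in C57BL/6 (−1.50, adjusted p = 0.0278).

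Adam11, Adam22 and Adam23 encode ADAM proteins without a catalytic site, best known as surface receptors in the nervous system, and all 3 were dim, with arrays of 17.4 to 75.7 for Adam11, 8 to 49.4 for Adam22 and 17 to 55.8 for Adam23. Adam11 had 30.8 and 27.9 at 24 h and 72.8 and 75.7 in controls in AKR/N, a change of −0.99 (SE 0.32, adjusted p = 0.0368), and was at −0.46 in C57BL/6, not called. Adam22 had 21.9 and 18.4 at 24 h and 49.4 and 38.2 in controls in AKR/N, −0.72 (SE 0.21, adjusted p = 0.0245), and was at −0.27 in C57BL/6, not called. In AKR/N the call of Adam11 ended without any 1 of its 4 arrays (adjusted p from 0.0928 to 0.168), and that of Adam22 without AKR/N 24 h replicate 1 (−0.79, adjusted p = 0.0564), 24 h replicate 2 (−0.65, adjusted p = 0.151) or control replicate 1 (−0.59, adjusted p = 0.15). Adam23 rose in C57BL/6, with 49.6 and 55.8 at 24 h and 34.7 and 17.2 in controls, 0.74 (SE 0.22, adjusted p = 0.0164), and was at 0.32 in AKR/N, not called. It was no longer called when C57BL/6 24 h replicate 2 (0.68, adjusted p = 0.0874) or control replicate 2 (0.44, adjusted p = 0.202) was left out, and under median centring (0.62, adjusted p = 0.0506) and quantile normalization (0.59, adjusted p = 0.0587). A further Adam23 probe set gave −0.50 in AKR/N and 0.79 in C57BL/6, of which the second was called. That set was dimmer still, with 22.3 and 13.5 at 24 h and 6.23 and 0.898 in controls in C57BL/6.

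Of the 10 tested ADAM genes of the sperm surface, Adam1b, Adam2 and Adam18 fell and Adam6a rose at 24 h in both strains, and 6 were not called in either. At that time 23.4% of all genes were called in AKR/N and 38.0% in C57BL/6. Adam1b encodes one of the 2 mouse ADAM1 proteins, the one found on the sperm surface with ADAM2. In AKR/N its signals were 635 and 727 in controls, 742 and 655 at 8 h, 588 and 809 at 10 h, 575 and 491 at 12 h and 313 and 314 at 24 h. In C57BL/6 they were 597 and 672 in controls, 536 and 598 at 8 h, 514 and 516 at 10 h, 436 and 508 at 12 h and 323 and 304 at 24 h. Both 24 h arrays of each strain lay below every other array of that strain. The 24 h change was −1.08 (SE 0.16, adjusted p = 6.67e-04) in AKR/N and −0.98 (SE 0.16, adjusted p = 2.85e-04) in C57BL/6. A second probe set gave −1.19 in AKR/N and −0.94 in C57BL/6, both called. Another, dim with arrays from 2.24 to 31.8, gave 0.13 in AKR/N and −0.56 in C57BL/6, neither called. The mean of the 3 was −0.71 in AKR/N.

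Adam2, the other chain of fertilin, and Adam18, a sperm surface member, fell by less. Adam2 had 1707 and 1741 at 24 h against 2349.8 and 2440.3 in controls in AKR/N (−0.47, adjusted p = 0.0155), and 1466 and 1719 against 2378 and 2757 in C57BL/6 (−0.68, adjusted p = 7.32e-04). Adam18 had 485 and 465 at 24 h against 645 and 672 in controls in AKR/N (−0.46, adjusted p = 0.0294), and 364 and 396 against 593 and 713 in C57BL/6 (−0.75, adjusted p = 8.07e-04). For both genes the 24 h arrays lay below the controls in each strain without overlap, as for 11 of 25 ADAM genes in AKR/N and 4 in C57BL/6. In C57BL/6 both calls held whichever array was left out, while in AKR/N both ended without any 1 of the 4 arrays (adjusted p from 0.0527 to 0.0813 for Adam2 and 0.075 to 0.153 for Adam18) and under median centring (Adam2 −0.46, adjusted p = 0.0707, and Adam18 −0.45, adjusted p = 0.0883). Adam18 was also lower at 12 h in C57BL/6, 462 and 473, −0.46 (adjusted p = 0.0324), which was lost on leaving out 12 h replicate 1 (−0.45, adjusted p = 0.093), 12 h replicate 2 (−0.48, adjusted p = 0.0953) or control replicate 2 (−0.33, adjusted p = 0.235).

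Adam3, Adam5 and Adam32, also of mature sperm, were not called at any time in either strain. Adam3, which mouse sperm need to bind the egg coat, ran over all 20 arrays from 3092 to 4117, and at 24 h was at −0.13 (adjusted p = 0.425) in AKR/N and 0.22 (adjusted p = 0.124) in C57BL/6. Adam5 ran from 3554 to 4485 and was at −0.08 in AKR/N and 0.11 in C57BL/6. Adam32 ran from 2379 to 3619.7 and was at −0.30 in AKR/N and 0.02 in C57BL/6. These 3 genes are neighbours of genes that did change. On chromosome 8 the RefSeq annotation has, in order, Adam18, a long noncoding gene (Gm51566), Adam3, a pseudogene (Gm26208), Adam5, Adam32 and Adam9. Along this run, Adam18 fell and Adam9 rose at 24 h in both strains, and the 3 genes between them were not called.

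Adam6a rose at 24 h in both strains. Its protein is found on mouse sperm together with other ADAM proteins. In AKR/N its signals were 599.5 and 517 in controls, 545 and 520.3 at 8 h, 719 and 581 at 10 h, 528 and 682 at 12 h and 939.6 and 1062 at 24 h. In C57BL/6 they were 579 and 604 in controls, 675 and 706 at 8 h, 1132 and 1029 at 10 h, 848 and 919.5 at 12 h and 1185 and 1253 at 24 h. The C57BL/6 arrays at every time after heat lay above both controls, while the AKR/N arrays overlapped with controls at 8, 10 and 12 h and not at 24 h. The 24 h change was 0.83 (SE 0.15, adjusted p = 0.00192) in AKR/N and 1.02 (SE 0.15, adjusted p = 1.31e-04) in C57BL/6. In C57BL/6 it was also called at 10 h, 0.85 (adjusted p = 0.00429), which held whichever array was left out, and at 12 h, 0.57 (adjusted p = 0.0167), which ended without C57BL/6 12 h replicate 2 (0.51, adjusted p = 0.0912), control replicate 1 (0.54, adjusted p = 0.0898) or control replicate 2 (0.60, adjusted p = 0.0699).

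Adam6b is a near copy of Adam6a beside it on chromosome 12, so the signals of the pair may share probes with each other. Adam6b had 202 and 264 at 24 h and 156 and 118 in controls in AKR/N (0.70, adjusted p = 0.0821), and 381 and 360.5 at 24 h and 235 and 207 in controls in C57BL/6 (0.71, adjusted p = 0.0584). Its arrays at 24 h lay above the controls in both strains. It was not called as reported, but in C57BL/6 it was called with the replicate number as a block (adjusted p = 0.0407), with only the arrays compared (adjusted p = 0.0141) and with a pseudocount of 64 (adjusted p = 0.0245). The last 2 of the sperm surface group were dim on their chosen probe sets. Adam1a, which pairs with ADAM2 inside mouse germ cells, ran from 8.65 to 50.1 and was at −0.46 in AKR/N and −0.14 in C57BL/6. But a probe set shared by Adam1a and Mapkapk5 ran from 1738 to 2774 and another from 1160 to 1891, while others of that pair were dimmer. A low level of Adam1a is therefore not shown. Adam4 ran from 15.6 to 111 and was at 0.55 in AKR/N and 0.06 in C57BL/6.

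The other testis members, Adam21, Adam24, Adam25, Adam26a and Adam34, gave rises and no falls. At 24 h 4 of the 5 rose in AKR/N and 2 in C57BL/6, where 12.3% and 21.4% of all genes were called higher. Adam24, which encodes a mouse sperm surface metalloprotease also named testase 1, had 731 and 924 at 24 h against 422 and 523 in controls in AKR/N (0.79, adjusted p = 0.0109), and 1046 and 1084 against 521 and 545 in C57BL/6 (0.98, adjusted p = 0.00133). Adam21 had 605 and 702 against 375 and 501 in AKR/N (0.57, adjusted p = 0.0342), and 718 and 655 against 421 and 397 in C57BL/6 (0.72, adjusted p = 0.00581). For both genes the 24 h arrays lay above the controls in each strain, as for 11 of 25 ADAM genes in AKR/N and 14 in C57BL/6. In C57BL/6 both calls held whichever array was left out. In AKR/N the Adam24 call ended without 24 h replicate 2 (0.62, adjusted p = 0.12) or control replicate 1 (0.64, adjusted p = 0.0894). The AKR/N call of Adam21 ended without 24 h replicate 1 (0.67, adjusted p = 0.0536), 24 h replicate 2 (0.47, adjusted p = 0.218) or control replicate 1 (0.37, adjusted p = 0.252), and under median centring (0.58, adjusted p = 0.0524).

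Adam25 and Adam26a, also testase genes, rose at 24 h in AKR/N. Adam25 had 339 and 341 at 24 h against 190.5 and 238 in controls in AKR/N (0.64, adjusted p = 0.0166), and 184 and 247 at 24 h and 192 and 146 in controls in C57BL/6 (0.32, adjusted p = 0.159). Adam26a had 365 and 403 against 197 and 288 in AKR/N (0.65, adjusted p = 0.00907), and 370.3 and 448 at 24 h and 312 and 300.3 in controls in C57BL/6 (0.39, adjusted p = 0.0576). The AKR/N call of Adam25 ended without 24 h replicate 1 (0.64, adjusted p = 0.0592), 24 h replicate 2 (0.63, adjusted p = 0.0956) or control replicate 1 (0.49, adjusted p = 0.13). That of Adam26a ended without 24 h replicate 2 (0.58, adjusted p = 0.0849) or control replicate 1 (0.39, adjusted p = 0.0953). Adam34 was at 0.39 (adjusted p = 0.102) in AKR/N, called higher without 24 h replicate 1 (0.61, adjusted p = 0.0303), and at 0.29 (adjusted p = 0.18) in C57BL/6. In C57BL/6 Adam26a was called at 24 h with a pseudocount of 64 (adjusted p = 0.0316) or quantile normalization (adjusted p = 0.0382).

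In C57BL/6 3 of these 5 genes were already called higher at 10 h, where 6.00% of all genes were called higher. Adam24 was at 1089.7 and 841 at 10 h (0.83, adjusted p = 0.0162), Adam26a at 514 and 538 (0.75, adjusted p = 0.00931) and Adam21 at 608 and 640.2 (0.59, adjusted p = 0.0487), all above both controls. At 12 h the changes were 0.67 (adjusted p = 0.0277) for Adam24, 0.61 (adjusted p = 0.0155) for Adam26a and 0.59 (adjusted p = 0.0352) for Adam21. Adam26a was thus called at 10 and 12 h and, as reported, not at 24 h in C57BL/6. Each of these calls ended without 1 array or another: at 10 h Adam21 without any of its 4 arrays (adjusted p from 0.131 to 0.207), Adam24 without 10 h replicate 1 (0.125), control replicate 1 (0.099) or control replicate 2 (adjusted p = 0.0751), and Adam26a without 10 h replicate 2 (0.0617), control replicate 1 (0.0578) or control replicate 2 (adjusted p = 0.0635). At 12 h Adam21 (adjusted p from 0.0891 to 0.158) and Adam24 (adjusted p from 0.0533 to 0.131) ended without any of 4 arrays, and Adam26a without 12 h replicate 2 or either control (adjusted p = 0.0786, 0.0618 and 0.0899).

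**Figure D3:**
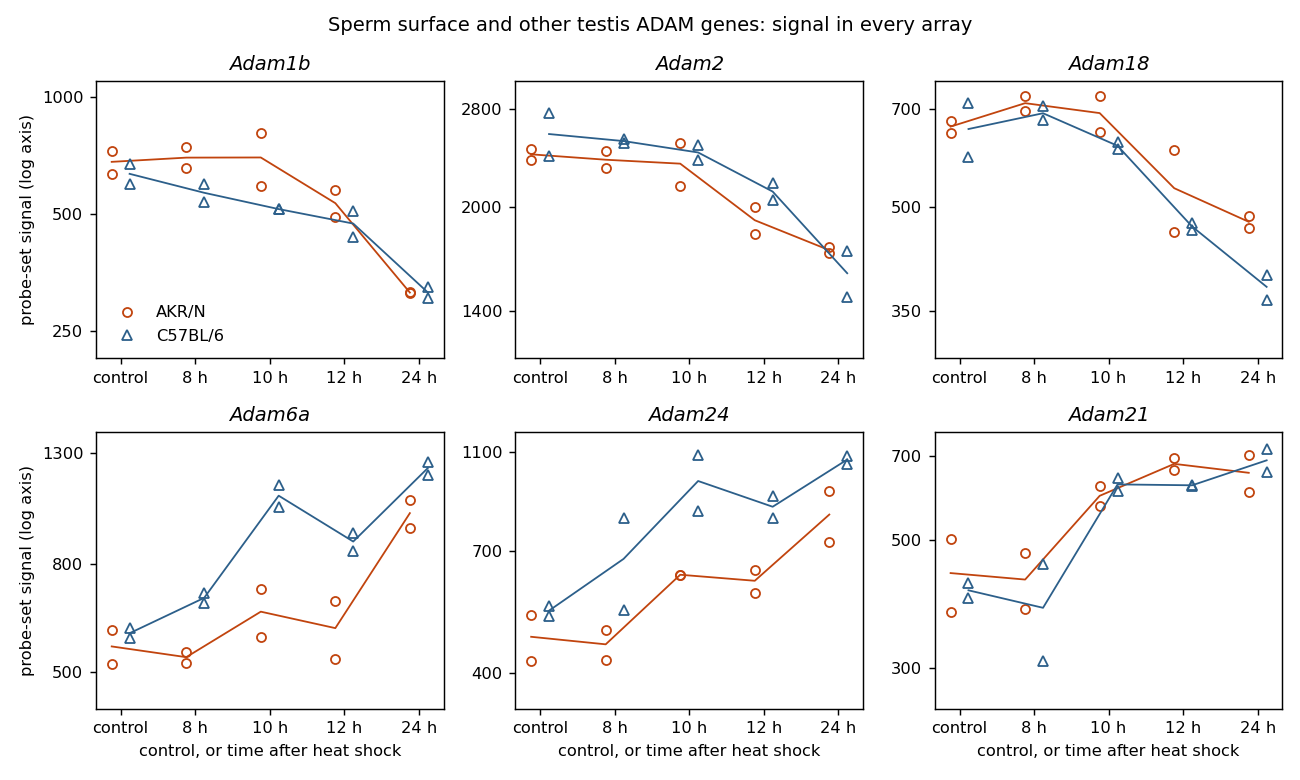
Signal of sperm surface and other testis ADAM genes on every array (log axis, deposited intensity) in controls and 8, 10, 12 and 24 h after heat. Circles are AKR/N and triangles C57BL/6, and lines join the means of the 2 arrays. Adam1b at 24 h lies at 313 and 314 in AKR/N and 323 and 304 in C57BL/6, below all other times, while Adam6a and Adam24 lie above their controls.

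The germ cell members differ in gene length. By RefSeq (GRCm38.p6) those that rose at 24 h in at least 1 strain have spans of 2507 bp for Adam6a, 3980 bp for Adam25, 7123 bp for Adam24, 8435 bp for Adam26a and 9900 bp for Adam21. Of the 3 that fell, Adam2 and Adam18 span 50530 and 72510 bp, but Adam1b spans 3340 bp. Adam3, Adam5 and Adam32, which were not called, span 49146, 97277 and 112776 bp. But Adam6b, Adam4, Adam1a and Adam34, also not called, span 2271, 2597, 3092 and 15252 bp, so short genes are found among those that rose, fell or were not called. These spans are a description and were not tested.

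Of the germ cell stage markers, those of pachytene spermatocytes were called at 24 h more often than all genes. The shares were 53.8% in AKR/N and 69.2% in C57BL/6, against 23.4% and 38.0% of all genes. Round spermatid markers, at 21.4% in AKR/N and 42.9% in C57BL/6, were near the shares of all genes. Elongating spermatid markers, at 7.14% and 28.6%, were below them. Of 13 pachytene spermatocyte markers 1 rose and 6 fell in AKR/N (median change −0.52), and 1 rose and 8 fell in C57BL/6 (median −1.06), with Ccna1, a meiotic cyclin, at −1.54 in AKR/N and −1.82 in C57BL/6. Their summed signal was 24776 to 24840 at 24 h and 27840 to 29030 in controls in AKR/N, and 22114 to 23152 at 24 h and 27915 to 28725 in controls in C57BL/6, with all 13 above the dim threshold. Of 14 round spermatid markers 3 rose and 0 fell in AKR/N and 4 rose and 2 fell in C57BL/6, with sums of 25285 to 25724 at 24 h and 20464 to 25453 in controls in AKR/N, and 32634 to 34727 at 24 h and 27622 to 29367 in controls in C57BL/6. Of 14 elongating spermatid markers 1 rose and 0 fell in AKR/N, with sums of 90515 to 90866 at 24 h and 91336 to 94356 in controls, and 4 rose and 0 fell in C57BL/6, with sums of 102513 to 104307 at 24 h and 85121 to 90443 in controls. Of 11 tested spermatogonial markers 2 rose and 0 fell in AKR/N (18.2% called), with sums of 1862 to 1948 at 24 h and 1638 to 1695 in controls. In C57BL/6 3 rose and 1 fell (36.4% called), with sums of 1626 to 1644 at 24 h and 1600 to 1636 in controls. The part of these marker changes in those of the germ cell ADAM genes was not tested.

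**Figure D4:**
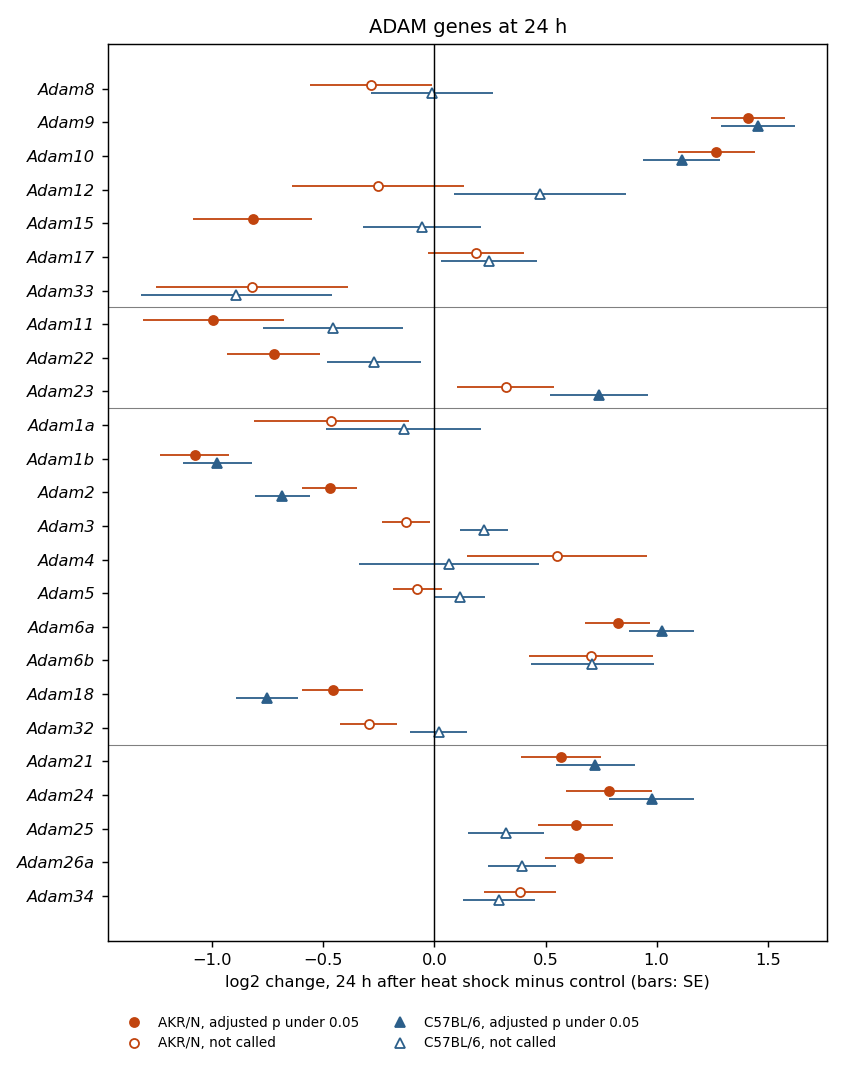
Log2 change at 24 h against controls of the same strain for the 25 tested ADAM genes, AKR/N above C57BL/6 for each gene, grouped by role, with the standard error of limma. Adam9, Adam10 and Adam6a lie to the right and Adam1b to the left in both strains.

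The strain comparisons asked whether ADAM levels differed between AKR/N and C57BL/6. In controls 0 of 25 were called, where 6.29% of all genes were, and 3 had an unadjusted p under 0.05. Over the mean of all 5 conditions, with 10 arrays per strain, 1 was higher and 9 lower in AKR/N, which is 40% of 25 against 27.8% of all genes (14.9% higher and 12.9% lower). Adam22 was higher by 0.47 (adjusted p = 0.00194). The lower ones were Adam8 at −0.62 (adjusted p = 0.00172), Adam6b at −0.55 (adjusted p = 0.00415), Adam34 at −0.45 (adjusted p = 3.60e-04), Adam24 at −0.43 (adjusted p = 0.00196), Adam26a at −0.41 (adjusted p = 4.80e-04), Adam6a at −0.40 (adjusted p = 3.90e-04), Adam17 at −0.38 (adjusted p = 0.0085), Adam32 at −0.24 (adjusted p = 0.00698) and Adam3 at −0.18 (adjusted p = 0.0127). All 10 calls held whichever array was left out. For Adam17 the mean over its 3 probe sets gave 0.019, so the direction rests on the chosen one, and Adam3 was not called after quantile normalization (−0.13, adjusted p = 0.0531). In the same comparison 0 of 14 tested round spermatid markers were higher and 11 lower in AKR/N (78.6% called, median −0.31). Of 14 elongating spermatid markers 0 were higher and 3 lower (21.4% called). Of 13 pachytene spermatocyte markers 6 were higher and 2 lower (61.5% called). The part of these cells in the strain differences of the ADAM genes was not tested. Whether the probes match the sequence of both strains equally was not tested.

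The 24 h response was not shown to differ between the strains for any ADAM gene. The difference of the 24 h change, AKR/N minus C57BL/6, gave 0 calls of 25, where 1.76% of all genes were called, and 1 ADAM gene had an unadjusted p under 0.05, Adam3 at −0.35 (unadjusted p = 0.0381, adjusted p = 0.226). For Adam9 it was −0.04 ± 0.24 (SE) and for Adam10 0.16 ± 0.25. For the members called in 1 strain it was −0.76 (adjusted p = 0.289) for Adam15, −0.54 for Adam11, −0.45 for Adam22, −0.42 for Adam23, 0.31 for Adam25 and 0.26 for Adam26a. The same differences at 8, 10 and 12 h, added after seeing the data, also gave 0 calls of 25 each, with 0, 2 and 1 at an unadjusted p under 0.05, where 0.00%, 0.0317% and 0.00% of all genes were called. The C57BL/6 calls at 10 h are therefore not shown to be particular to that strain.

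Timp1 and Timp3, which encode inhibitors of metalloproteases, rose at 24 h in both strains. Of 22 tested partners and inhibitors of ADAM10 and ADAM17, 6 rose and 1 fell in AKR/N (median 0.13, against −0.01 over all genes) and 8 rose and 2 fell in C57BL/6 (median 0.37, against 0.08). That is 31.8% called in AKR/N, where 23.4% of all genes were, and 45.5% in C57BL/6, where 38.0% were, shares near the background. Timp1, a secreted inhibitor of metalloproteases, was at 114 and 144 at 24 h against 42.3 and 42.4 in controls in AKR/N (1.31, adjusted p = 0.00479), and 252 and 283 against 26.2 and 29.4 in C57BL/6 (2.69, adjusted p = 1.16e-05). Timp3, which blocks ADAM10 and ADAM17, rose by 1.12 (adjusted p = 0.00567) in AKR/N and 1.51 (adjusted p = 2.82e-04) in C57BL/6. Frmd8, which holds the iRhom and ADAM17 complex at the cell surface, was at −0.86 (adjusted p = 0.00511) in AKR/N and −0.88 (adjusted p = 0.00181) in C57BL/6. Mad2l1, a mitotic checkpoint protein that binds ADAM17, rose in AKR/N by 0.82 (adjusted p = 0.0163) and was at 0.17 (adjusted p = 0.58) in C57BL/6. Timp2 was at 0.12 (adjusted p = 0.44) in AKR/N and rose in C57BL/6 by 0.54 (adjusted p = 0.00166). The AKR/N calls of Timp1, Timp3, Frmd8 and Mad2l1 all ended without 24 h replicate 2 (adjusted p = 0.0596 for Timp1, 0.0597 for Timp3, 0.0621 for Frmd8 and 0.114 for Mad2l1), and Mad2l1 also without control replicate 1 (0.0937). The mean over probe sets ended the Timp2 call (0.27, adjusted p = 0.145).

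Of 39 tested substrates of ADAM proteases, 6 rose and 2 fell in AKR/N (median 0.13) and 16 rose and 2 fell in C57BL/6 (median 0.53). The shares called were 20.5% in AKR/N and 46.2% in C57BL/6, against 23.4% and 38.0% of all genes. Sdc4, a heparan sulphate proteoglycan, rose by 1.28 (adjusted p = 0.00302) in AKR/N and 1.81 (adjusted p = 9.23e-05) in C57BL/6, and Prnp, the prion protein, by 0.89 (adjusted p = 0.00118) in AKR/N and 1.07 (adjusted p = 8.65e-05) in C57BL/6. Kitl, the Sertoli cell ligand of the receptor Kit, rose by 0.91 (adjusted p = 0.0124) in AKR/N and 1.47 (adjusted p = 2.38e-04) in C57BL/6. The mean over its probe sets ended the AKR/N call (0.36, adjusted p = 0.159). Kl, the Klotho protein, was dim and fell in both strains. In AKR/N it had 12.5 and 8.24 at 24 h against 18.7 and 29.8 in controls (−0.60, adjusted p = 0.0188). That call ended under median centring (adjusted p = 0.0502) and with a pseudocount of 64 (adjusted p = 0.0752). In C57BL/6 it had 2.13 and 1.6 at 24 h against 20.8 and 18.5 in controls (adjusted p = 3.81e-04). Csf1r, a macrophage receptor also on the leukocyte marker list, rose by 0.69 (adjusted p = 0.00485) in AKR/N and 0.53 (adjusted p = 0.0109) in C57BL/6. Notch2 rose by 0.90 (adjusted p = 0.0118) in AKR/N and was at 0.33 (adjusted p = 0.274) in C57BL/6. The AKR/N calls of Kitl and Kl both ended without 24 h replicate 2 (adjusted p = 0.108 and 0.16) or control replicate 2 (adjusted p = 0.067 and 0.16), and the C57BL/6 call of Csf1r without 24 h replicate 1 (adjusted p = 0.0985) or control replicate 2 (adjusted p = 0.0845). The AKR/N calls of Csf1r and Notch2 both ended without 24 h replicate 2 (adjusted p = 0.0584 and 0.129), without control replicate 2 (adjusted p = 0.0506 and 0.091) and with the mean over probe sets (adjusted p = 0.137 and 0.111).

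Of 24 tested partners of the sperm ADAM proteins, 7 rose and 6 fell in AKR/N (median −0.12) and 5 rose and 6 fell in C57BL/6 (median −0.20), with no common direction. The shares called were 54.2% in AKR/N and 45.8% in C57BL/6, against 23.4% and 38.0% of all genes. Hyal5, a sperm hyaluronidase, was higher by 0.91 (adjusted p = 6.67e-04) in AKR/N and 0.84 (adjusted p = 2.55e-04) in C57BL/6, and Zpbp2, an acrosome protein, was at −0.82 (adjusted p = 0.00377) in AKR/N and −0.94 (adjusted p = 5.34e-04) in C57BL/6. Of the testis chaperones, Pdilt rose by 0.57 (adjusted p = 0.0221) in AKR/N and 0.87 (adjusted p = 9.28e-04) in C57BL/6, while Clgn, calmegin, which mouse fertilin needs to fold, fell in both, at −0.54 (adjusted p = 0.0108) in AKR/N and −0.69 (adjusted p = 0.00109) in C57BL/6. Pcsk4, a germ cell convertase that processes sperm ADAM proteins in mice, was at −0.86 (adjusted p = 0.00484) in AKR/N and −0.57 (adjusted p = 0.0227) in C57BL/6. Cmtm2b was at −0.50 (adjusted p = 0.00691) in AKR/N and −0.36 (adjusted p = 0.0215) in C57BL/6. The AKR/N calls of Zpbp2 and Cmtm2b ended without 24 h replicate 2 (adjusted p = 0.0589 and 0.0839). In AKR/N the Pdilt call ended without any 1 of the 4 arrays (adjusted p from 0.0502 to 0.123), and that of Clgn without 24 h replicate 2 or control replicate 2 (adjusted p = 0.126 and 0.0526). In C57BL/6 the Cmtm2b call ended without any 1 of the 4 arrays (adjusted p from 0.0548 to 0.12), and that of Pcsk4 without 24 h replicate 1, 24 h replicate 2 or control replicate 2 (adjusted p from 0.0653 to 0.147).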

How the data were processed

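Total RNA of whole testes was measured on 20 Affymetrix Mouse Genome 430 2.0 arrays, 2 in each of 10 groups of strain and time. The deposited signals, 1 per probe set, are linear in scale (unit intensity). Their mean, with the top and bottom 2% trimmed, was 125.001 on all arrays, so the authors appear to have scaled them to 1 target. The software that summarised the probes is not given in the sources used here.

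Of 45101 probe sets, 64 controls were left out, and the chip annotation gave 1 gene for 34945, several for 932 and none for 9160. Only the first kind was tested. Symbols were matched through Entrez ID for 34741 probe sets, which changed 0 symbols. Each gene was read by its brightest probe set, by mean log2(signal + 16), and genes were tested where the highest group mean reached the 40th percentile (log2 of 5.07, a signal of 17.5), so a gene bright in 1 group only could pass. The ADAM genes had 46 probe sets of 1 gene and 5 of several genes, and 11 ADAM genes had more than 1. RefSeq names 34 ADAM genes, of which Adam20, Adam26b, Adam29, Adam30, Adam34l and Adam39 had no probe set under that symbol and were not analysed here.

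All 20 arrays entered 1 linear model of group means in limma 3.58.1 and R 4.3.3 (package data.table, version 1.17.8), with empirical Bayes moderation (prior degrees of freedom 3.54, residual 10), and p-values were adjusted by Benjamini-Hochberg over 15762 genes. On simulated data of the C57BL/6 24 h comparison, 60% of 100 genes with a log2 change of 1 and 95% of 100 with a change of 2 were called, with 8 false calls. Only these genes were changed, with independent normal noise. In the real comparison 38.0% of all genes were called, so these shares need not hold for it. Promoters were searched in Python 3.11.15, and plots were drawn with matplotlib 3.10.9. The orientation of the RefSeq windows was checked on 1471 overlaps of windows on opposite strands, of which 1471 matched.

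Values on every array are given for ADAM genes called with a log2 change of at least 1 in size in any heat or strain comparison, and other members by range, named changes or the arrays of the groups compared. From each partner or substrate list up to 4 called genes with the smallest adjusted p per strain at 24 h are named. The members, the lists and the rules were chosen with earlier results of these data known. The alternatives were another pseudocount (1 or 64), no filter on dim genes, median centring, quantile normalization, the mean of all probe sets of a gene, only the arrays of the groups compared, the replicate number as a block, and leaving out each array in turn. Precision is limited by the number of arrays.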

Additional observations from a re-analysis of the deposited data

Results flagged for a closer look

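The comparisons used probe sets of 1 gene, and signals of probe sets shared by several genes were set aside. Of the 5 shared sets with an ADAM gene, 3 were called higher at 24 h in C57BL/6 in a limma fit over all probe sets. Those of Adam1a together with Mapkapk5, a protein kinase gene, were higher by 0.58 and 0.60 in C57BL/6, while in AKR/N the changes were 0.07 and 0.04 without a call. The set shared by Adam6a and Adam6b was higher by 1.21 in C57BL/6 and was at 0.59 in AKR/N (adjusted p = 0.0571). The difference between the strains was not called for any of these 3 sets (adjusted p = 0.168, 0.16 and 0.296). Which gene of each pair gave the signal was not tested.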

How the results depend on the processing

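Of 49 calls of an ADAM gene in a comparison, 26 held whichever array was left out, among them Adam9, Adam10, Adam1b and Adam6a at 24 h against controls in both strains. With 1 array less the AKR/N counts ran from 4 to 9 for 24 h and from 0 to 2 for 12 h, and others 1 to 2 in C57BL/6 at 10 h, 0 to 2 in C57BL/6 at 12 h, 0 to 1 between controls of the strains, and, for 24 h against 12 h, 2 to 4 in AKR/N and 1 to 4 in C57BL/6. Fitting only the arrays of the groups compared, which leaves fewer residual degrees of freedom, gave 5 calls in AKR/N at 24 h, 0 in C57BL/6 at 10 and 12 h, and 0 for 24 h against 12 h in both strains; it kept 23 of the 49 calls. Median centring gave 1 call in C57BL/6 at 12 h. It moved the median of all genes at 24 h in C57BL/6 from 0.08 to −0.05 and turned the direction of no ADAM call. In AKR/N at 12 h there was 1 call with a pseudocount of 64, with quantile normalization and with the mean of all probe sets, and a pseudocount of 64 gave 5 calls for 24 h against 12 h in C57BL/6. The causes were not tested. A pseudocount of 1 ended 5 of the 49 calls, among them those of the dim Adam11 (adjusted p = 0.0666), Adam15 (0.0547) and Adam22 (0.0592) at 24 h in AKR/N. The mean of all probe sets reversed 1 call, Adam17 between the strains, to 0.019 (adjusted p = 0.821), and ended Adam22 at 24 h in AKR/N (−0.49, adjusted p = 0.076). With all probe sets fitted together, Adam15, Adam18 and Adam21 were not called in AKR/N at 24 h (adjusted p = 0.0552, 0.0511 and 0.0521).

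Arrays of the same replicate number showed no shift common to all groups. Their deviations from group means correlated with r from −0.28 to 0.30 over 45 pairs of groups (median −0.01), 4 of them over 0.1. This check cannot exclude a pairing within part of the series. With the replicate number as a block there were 13 calls in AKR/N and 10 in C57BL/6 at 24 h, 0 and 3 at 10 h, 0 and 5 at 12 h, 0 in both at 8 h, 4 and 3 for 24 h against 12 h, 10 between the strains over all conditions, and 0 for controls and for differences of the heat effect. The block added the call of Adam6b in C57BL/6 at 24 h (adjusted p = 0.0407) and ended the calls of Adam21 in C57BL/6 at 10 h (adjusted p = 0.0624) and Adam25 in AKR/N between 12 and 24 h (adjusted p = 0.0525).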
